A study of Arabidopsis thaliana with 12 samples.

Results

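Arabidopsis thaliana stems that overexpress C3H14 (C3H14-OE) were set against stems that overexpress its close relative C3H15 (C3H15-OE). The comparison takes 6 of the 12 arrays of the series, 3 for each overexpressor, chosen by the genotype that the labels give. The other 6 arrays are 3 of the c3h14c3h15 double mutant and 3 of the wild type (WT), which entered the same model and whose levels stand beside those of the overexpressors. All 4 groups share the ecotype Col-0. RNA came from the lowest 4 cm of inflorescence stems that had reached 12 to 17 cm, on plants kept at 22 °C with 16 h of light and 8 h of dark. Neither the promoter of the transgenes nor the mutant alleles are given in the sources used here. The labels do not settle whether the 3 arrays of an overexpressor come from separate transgenic lines or from plants of 1 line. Each p-value thus covers the scatter among these arrays and no more.

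C3H14 and C3H15 belong to the tandem CCCH zinc finger proteins, which carry a pair of fingers that each hold a zinc ion through cysteine and histidine residues. Proteins of this family bind RNA in animals, and several plant members act on transcription as well. In a stem the secondary wall, made of cellulose, xylan and lignin, is laid down in fibres and vessels once these cells stop growing, and the stem base is where such cells are most mature. The study named secondary walls and pollen formation as the themes of the genes it followed. The direct comparison of the overexpressors asks in which transcripts the plants with more C3H14 and those with more C3H15 differed, and it is also the test of whether their departures from WT differed.

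Values are log2 of the deposited array intensity, 1 unit being a 2-fold difference, and each probe set reads the 3′ part of a transcript. Levels of different probe sets are not comparable with each other, so only 1 probe set is compared across arrays. Each difference is the mean of C3H14-OE minus the mean of C3H15-OE, tested with limma over 22746 probe sets, with a moderated standard error (SE) and a Benjamini-Hochberg adjusted p. A probe set is called where that adjusted p is under 0.05. A stem holds many cell types, and fewer cells of a type cannot be told apart from less RNA per cell.

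C3H14 itself was read first, since it checks the labels. It gave log2 intensities of 8.43, 9.10 and 7.07 on the arrays labelled C3H14-OE, against 5.18, 5.39 and 5.99 on those labelled C3H15-OE. The overexpressor groups did not overlap, and the lowest C3H14-OE value was that of replicate 3. The double mutant read 6.55, 6.43 and 6.08, and WT read 7.01, 6.12 and 7.43. The array labelled C3H14-OE replicate 3 therefore lay within the WT range, while its other 2 arrays lay above every WT array. The C3H15-OE arrays lay below all 3 WT arrays and all 3 mutant arrays. C3H14 was 2.68 log2 units apart between the overexpressors, the highest positive difference of any probe set, with a 95% interval of 1.69 to 3.67 (SE 0.45), and it did not pass the threshold (adjusted p = 0.0553). It passed without the array labelled C3H14-OE replicate 3 (difference 3.24, adjusted p = 0.0068) and without C3H15-OE replicate 3 (difference 2.91, adjusted p = 0.0307). Against WT, neither the 1.34 of C3H14-OE (adjusted p = 0.258) nor the -1.34 of C3H15-OE (adjusted p = 0.0993) passed. TZF8, the other tandem CCCH zinc finger gene with a named probe set, had a difference of 0.14 (SE 0.17, adjusted p = 0.876). No probe set is named for C3H15 in the annotation used here, so the label C3H15-OE was not checked in this way. Every direction given below rests on the labels.

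Between the overexpressors 28 of the 22746 probe sets were called, 0.123% of those tested. Of these 14 were higher and 14 lower in C3H14-OE, 0.0615% each way. A difference over 2-fold was shared by 20 of them (0.0879%), 9 higher (0.0396%) and 11 lower (0.0484%). All 28 had arrays that did not overlap between the groups, as did 17.2% of all probe sets, 8.53% with C3H14-OE higher and 8.63% with it lower. Only 14 of the called probe sets have a gene named here, 6 higher and 8 lower, and the other 14 are unnamed, among them the widest difference of all (-5.77). An unadjusted p under 0.05 was found for 2226 probe sets (9.79%), where 1137.3 would be expected from tests without any difference. The median difference over all probe sets was -0.0062. Differences at the lowest and highest 1% stood at -0.74 and 0.92. No probe set was called when only the 6 overexpressor arrays were fitted (2650 had an unadjusted limma p under 0.05) or when C3H15-OE replicate 2 was left out (1571).

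**Figure D1:**
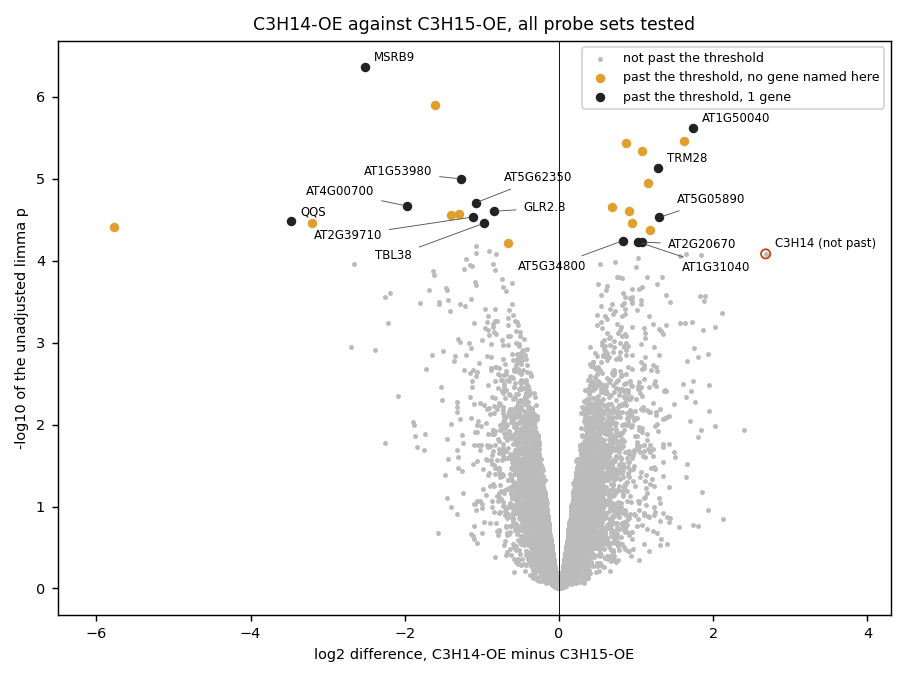
Each point is 1 of the 22746 probe sets, with the log2 difference of C3H14-OE minus C3H15-OE on the horizontal axis and -log10 of the unadjusted limma p on the vertical axis. The 28 called probe sets are drawn large, black with a gene name and orange without one, and C3H14 (ring, difference 2.68) lies just below them.

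The genes called higher in C3H14-OE were AT1G50040, AT5G05890, TRM28, AT2G20670, AT1G31040 and AT5G34800, by 1.78-fold to 3.33-fold. TRM28 belongs to the TON1 recruiting motif family, whose studied members organise microtubule arrays. AT5G34800 is a pseudogene in RefSeq, and the other 4 loci have no symbol. In 4 of the 6 (AT1G50040, AT5G05890, TRM28 and AT1G31040) the 3 C3H15-OE arrays lay below all 9 others. AT5G34800 was the gene of the 14 whose C3H14-OE arrays lay above all 9 others. Over all probe sets 1.71% had C3H14-OE arrays beyond all 9 others in either direction, and 5.43% had C3H15-OE arrays so. The 14 genes were picked by their gap between the overexpressors, so these shares are not an equal background for them.

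AT1G50040 read 6.86, 6.93 and 6.15 in C3H14-OE, against 4.68, 5.01 and 5.05 in C3H15-OE. The double mutant averaged 6.87 ± 0.23 and WT 7.47 ± 0.14 (SD, n = 3 each), so both overexpressors lay below WT and C3H15-OE lay furthest down. Its difference was 1.74 (SE 0.20, adjusted p = 0.0168). TRM28 read 5.89, 6.24 and 5.49 in C3H14-OE, against 4.42, 4.70 and 4.64 in C3H15-OE. Here the C3H14-OE arrays spread on either side of the narrow WT range (6.08 ± 0.06), and the mutant averaged 6.26 ± 0.17. The difference of TRM28 was 1.29 (SE 0.17, adjusted p = 0.0237).

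The remaining 4 differed by 0.83 to 1.30. AT5G05890 read 6.25, 6.34 and 5.66 in C3H14-OE, against 5.08, 4.58 and 4.69 in C3H15-OE, a difference of 1.30 (SE 0.20, adjusted p = 0.0364). WT lay at 6.51 ± 0.19 and the mutant between WT and C3H15-OE at 5.73 ± 0.22. AT2G20670 read 11.11, 10.95 and 10.63 in C3H14-OE, against 10.01, 9.74 and 9.71 in C3H15-OE, a difference of 1.08. Its C3H14-OE arrays sat near WT (11.04 ± 0.27), and its mutant arrays (10.11 ± 0.24) sat near C3H15-OE. AT1G31040 read 5.45, 5.11 and 4.91 in C3H14-OE, against 4.02, 4.41 and 3.96 in C3H15-OE, a difference of 1.03. AT5G34800 read 3.65, 3.26 and 3.38 in C3H14-OE, against 2.67, 2.41 and 2.72 in C3H15-OE, a difference of 0.83. The probe set of AT5G34800 is dim on every array, and no detection call was used here. These last 3 genes shared an adjusted p of 0.0491, just inside the threshold, and C3H14 at 0.0553 stood just outside it. Both mutant (2.89 ± 0.15) and WT (2.98 ± 0.10) lay between the overexpressors for AT5G34800. In AT1G31040 they averaged 4.84 ± 0.18 and 5.10 ± 0.16, close to C3H14-OE.

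The genes called lower in C3H14-OE were QQS, MSRB9, AT4G00700, AT1G53980, AT2G39710, AT5G62350, TBL38 and GLR2.8, by 1.79-fold to 11.1-fold. In all of these but TBL38 the 3 C3H15-OE arrays lay above all 9 others. QQS is a gene found in Arabidopsis thaliana without known relatives elsewhere and takes part in setting leaf starch content. MSRB9 belongs to the methionine sulfoxide reductases, enzymes that repair oxidised methionine. TBL38 is a trichome birefringence-like protein, of a family that adds acetyl groups to wall polysaccharides, and GLR2.8 belongs to the glutamate receptor-like ion channels.

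QQS read 5.23, 4.48 and 4.95 in C3H14-OE, against 7.80, 8.38 and 8.90 in C3H15-OE. The C3H14-OE arrays lay among those of WT (5.49, 6.19 and 4.29), and the mutant spread widely at 5.53, 7.52 and 6.87. Its difference was -3.47, or 11.1-fold, with a 95% interval of -4.63 to -2.31 (SE 0.53, adjusted p = 0.0364). MSRB9 read 3.64, 3.21 and 3.81 in C3H14-OE, against 6.45, 6.16 and 5.59 in C3H15-OE. The mutant (3.81 ± 0.12) and WT (3.40 ± 0.44) sat with C3H14-OE, well apart from C3H15-OE. Its difference of -2.52 (SE 0.25, adjusted p = 0.0098) had the smallest p of all probe sets tested.

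AT4G00700 read 4.91, 4.27 and 5.11 in C3H14-OE, against 6.93, 7.21 and 6.07 in C3H15-OE, a difference of -1.97 (SE 0.29, adjusted p = 0.0364). Its mutant arrays averaged 3.68 ± 0.31 and WT 4.16 ± 0.16. AT1G53980 read 3.98, 3.56 and 3.82 in C3H14-OE, against 5.34, 5.14 and 4.66 in C3H15-OE, a difference of -1.26. All 3 mutant arrays gave 3.31 for it, and WT gave 3.56 ± 0.19, so C3H15-OE was again the group set apart. AT1G53980 has a dim probe set, and no detection call was used here. AT2G39710 read 5.10, 4.81 and 4.93 in C3H14-OE, against 6.41, 5.85 and 5.94 in C3H15-OE, a difference of -1.12. Its mutant (5.08 ± 0.28) and WT (5.16 ± 0.07) means lay a little above those of C3H14-OE and far below C3H15-OE.

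AT5G62350 read 10.29, 10.44 and 10.03 in C3H14-OE, against 11.02, 11.48 and 11.52 in C3H15-OE, a difference of -1.08 (SE 0.16). The mutant lay lowest (9.75 ± 0.19) and WT (10.45 ± 0.04) at the top of the C3H14-OE arrays. Its neighbour on the chromosome, AT5G62360, had a difference of -1.45 that did not pass (SE 0.51, adjusted p = 0.36). TBL38 read 8.99, 8.61 and 8.58 in C3H14-OE, against 9.79, 9.73 and 9.60 in C3H15-OE, a difference of -0.98 (SE 0.15, adjusted p = 0.0364). The mutant stood as high as C3H15-OE for TBL38 (9.77 ± 0.14), and WT lay between at 9.15 ± 0.25. GLR2.8 read 2.69, 2.69 and 2.66 in C3H14-OE, against 3.64, 3.69 and 3.23 in C3H15-OE, a difference of -0.84 (SE 0.12, adjusted p = 0.0364). That probe set is dim on every array, with the mutant at 2.81 ± 0.08 and WT at 2.56 ± 0.11, and no detection call was used here. Of its neighbours from the same gene cluster, GLR2.7 had a difference of -0.95 (SE 0.31, adjusted p = 0.301) and GLR2.9 of -0.01. The genes beside AT5G05890 (AT5G05880, AT5G05900 and UGT76C1) had differences of -0.21 to -0.01, none of them called.

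**Figure D2:**
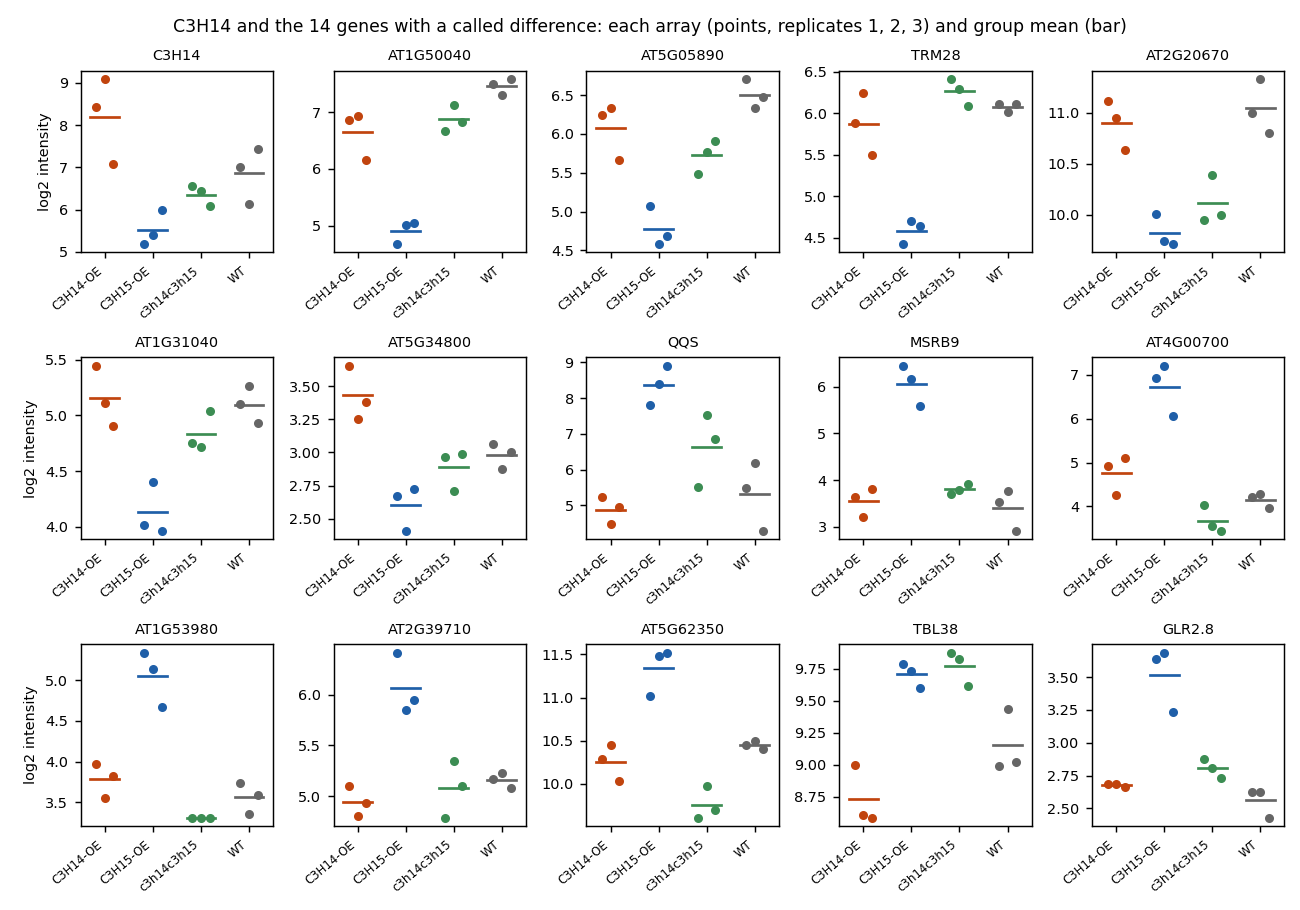
Log2 intensity of C3H14 and of the 14 called genes, 1 panel a gene, with a point for each of the 12 arrays, replicates 1, 2 and 3 from left to right within a group, and a bar at the group mean. The C3H14-OE and C3H15-OE points do not overlap in any panel, and in 11 of the 14 called genes the C3H15-OE points lie beyond all 9 others. For the 14 called genes the lack of overlap was a condition of their choice. The vertical axes differ between panels and do not start at 0.

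Set against WT in the same model, the 14 genes did not pass in C3H14-OE, where 3 of them had an unadjusted limma p under 0.05 and 10 of all probe sets were called (0.044%). In C3H15-OE 13 of the 14 passed, among 1513 called probe sets (6.65%), and the exception was AT5G34800 (-0.38, adjusted p = 0.114). In the double mutant 4 of the 14 passed, among 1296 called (5.7%). These comparisons share the WT arrays with one another and the overexpressor arrays with the direct contrast, so the counts are not independent of it. QQS had -0.44 in C3H14-OE minus WT (adjusted p = 0.738) and 3.04 in C3H15-OE minus WT (adjusted p = 0.0115). MSRB9 had 0.15 in C3H14-OE minus WT (adjusted p = 0.813) and 2.67 in C3H15-OE minus WT (adjusted p = 8.8e-04). AT1G50040 had -0.82 in C3H14-OE minus WT (adjusted p = 0.179) and -2.55 in C3H15-OE minus WT (adjusted p = 4.7e-04). In the mutant minus WT the genes that passed were AT2G20670 (-0.93, adjusted p = 0.0149), AT5G05890 (-0.78, adjusted p = 0.0413), AT5G62350 (-0.69, adjusted p = 0.0278) and TBL38 (0.62, adjusted p = 0.0351). AT2G20670 and AT5G05890 were thus below WT both in C3H15-OE and in the mutant, and TBL38 above WT in both. AT5G62350 went opposite ways, above WT in C3H15-OE (0.89, adjusted p = 0.0118) and below WT in the mutant.

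Genes of the secondary wall and of other functions were looked up in lists. Over 14 lists with 257 loci, 45 loci had a named probe set. Of these 45, 0 passed limma's threshold between the overexpressors, while 7 had an unadjusted limma p under 0.05. C3H14 itself was among the 7, and no member of the xylan or lignin lists was. The background over all probe sets is 0.123% called and 9.79% with an unadjusted p under 0.05. Of the 31 loci for secondary wall cellulose and its regulators, none has a probe set named here. Xylan synthesis had 4 named members of 20, and their differences ran from 0.03 to 0.51 with a median of 0.35, against -0.0062 over all probe sets. IRX15-L, needed for normal xylan chain length, read 8.08, 8.32 and 8.05 in C3H14-OE, against 7.48, 7.15 and 8.28 in C3H15-OE. Its close copy IRX15 read 7.44, 7.78 and 7.46 in C3H14-OE, against 7.18, 6.52 and 7.77 in C3H15-OE. In both genes the groups overlap through C3H15-OE replicate 3, whose value lay near those of C3H14-OE. The differences were 0.51 (95% interval -0.06 to 1.09, adjusted p = 0.574) and 0.40 (-0.13 to 0.93, adjusted p = 0.658).

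Lignin synthesis had 4 named members of 22 with a median difference of -0.02. The hydroxycinnamoyl transferase HCT, of the lignin pathway, and the peroxidases PRX52, PRX66 and PRX72 made up this list. PRX66 read 3.34, 3.13 and 5.48 in C3H14-OE, against 3.13, 3.08 and 3.42 in C3H15-OE, so that its difference of 0.78 (SE 0.48, adjusted p = 0.668) rests on the array labelled C3H14-OE replicate 3. Primary wall and wall loosening had 4 named members of 18 with a median of 0.20. XTH16, an enzyme that cuts and rejoins xyloglucan chains, read 5.93, 6.88 and 5.05 in C3H14-OE, against 3.67, 3.98 and 4.13 in C3H15-OE. Its groups do not overlap, and the difference of 2.03 (SE 0.44, 95% interval 1.07 to 2.99) did not pass (adjusted p = 0.105). The expansin EXPA4, of the proteins that loosen growing walls, had a difference of -0.76 with groups that also do not overlap (SE 0.25, adjusted p = 0.318).

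Pollen formation, the other theme of the study, was represented by 4 named members of 20 in the tapetum and pollen wall list. Their differences ran from -0.11 to 0.02, with a median of -0.07. These probe sets are dim, with a mean level of 2.71 in C3H14-OE and 2.76 in C3H15-OE, and no detection call was used here. A9, a tapetum-specific gene, read 3.27, 2.95 and 2.93 in C3H14-OE, against 2.94, 3.10 and 3.30 in C3H15-OE, with overlapping groups. Summed over the 3 named tapetum markers of 5, the linear intensity ran from 17.3 to 19.0 in C3H14-OE, from 17.9 to 19.9 in C3H15-OE, from 18.6 to 20.5 in the mutant and from 16.1 to 19.2 in WT. The 3 named pollen markers of 5 summed to 33.7 to 35.6 in C3H14-OE, 36.5 to 41.7 in C3H15-OE, 37.8 to 43.1 in the mutant and 33.4 to 46.3 in WT. The overexpressors do not overlap in the pollen sum, and WT spans both. The pollen markers are dim as well, with a mean log2 level of 3.40 in C3H14-OE and 3.56 in C3H15-OE. The trichome marker TRY gave 10.8 to 17.0 in C3H14-OE, 14.1 to 25.98 in C3H15-OE, 20.5 to 59.5 in the mutant and 9.76 to 15.8 in WT. The guard cell marker FMA gave 8.68 to 16.5 in C3H14-OE, 10.8 to 17.6 in C3H15-OE, 13.9 to 17.3 in the mutant and 12.9 to 14.01 in WT. These 8 marker genes are the only ones named in the 9 marker lists, 0 of them passed limma's threshold and 0 had an unadjusted p under 0.05. Phloem, vessel, epidermis, cambium and mesophyll markers have no probe set named here, and the part of cell type makeup in the called differences was not tested.

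The named members of the stress lists did not pass either. Most loci of these lists have no probe set named here, so nothing is said about them. Cold and abscisic acid had 5 named members of 15 with a median difference of 0.40. COR15A, a cold-induced chloroplast protein, read 6.70, 6.76 and 8.53 in C3H14-OE, against 5.79, 6.01 and 6.65 in C3H15-OE, a difference of 1.18 (SE 0.45, adjusted p = 0.396). The groups just fail to meet, and the highest value is again that of the array labelled C3H14-OE replicate 3. Touch and early stress had 5 named members of 20 with a median of 0.65, the largest of any list with 3 or more named members. Its calmodulin-like CML38 and CML37 and the zinc finger repressor STZ contributed wide intervals, and the transcription factor WRKY22 had a difference of 0.90 (SE 0.39, adjusted p = 0.482). The list median is the value of CML37, which read 2.83, 2.35 and 6.33 in C3H14-OE, against 2.88, 2.84 and 3.83 in C3H15-OE. Replicate 3 was the highest C3H14-OE array in CML37, CML38 and WRKY22, and not in STZ or CML39. The defence regulator WRKY53 read 7.07, 6.25 and 7.22 in C3H14-OE, against 8.12, 7.41 and 7.30 in C3H15-OE, a difference of -0.76 (SE 0.34, adjusted p = 0.492). SAG101, the other named member of the 21 for salicylic acid and pathogen defence, had -0.15. Jasmonate and wounding had 2 named members of 20, the thionin THI2.1 (-0.30, SE 0.29) and the defensin PDF1.2, whose arrays are given with those that stood apart. Photosynthesis, with 8 named members of 21, had a median of -0.02 and a range of -0.21 to 0.22. Flavonoid synthesis, with 3 named members of 12, had a median of -0.01. The clock gene GI (0.05) and the senescence factor WRKY6 (0.38, adjusted p = 0.492) stood alone in their lists.

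**Figure D3:**
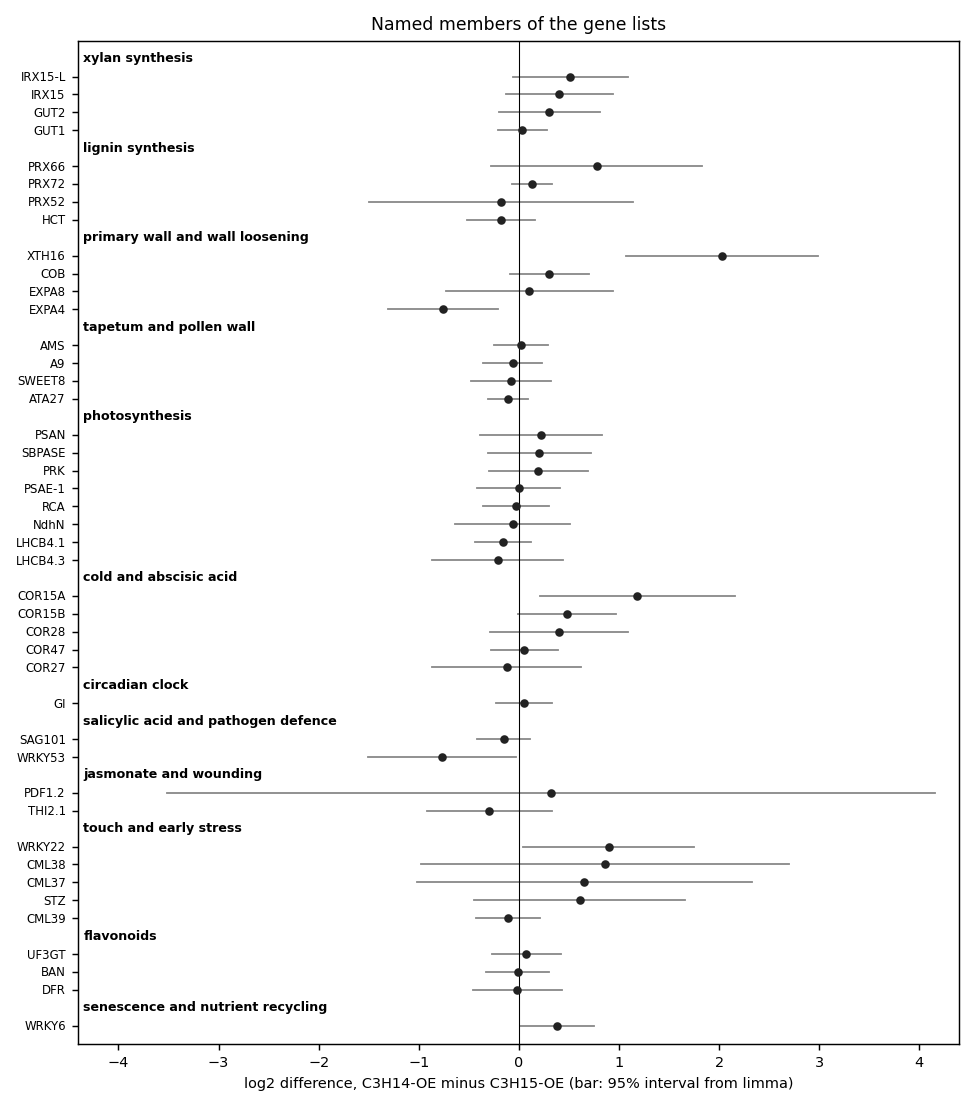
Log2 difference of C3H14-OE minus C3H15-OE for the named members of the gene lists, 1 row a gene, with the 95% interval from limma as a bar. The tandem CCCH zinc finger list and the marker lists are not drawn. The points lie on both sides of 0, no member passed the threshold, and PDF1.2 has the widest interval (-3.52 to 4.16).

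Gene families were also taken by words in gene symbols and synonyms, or by chromosome for the plastid genome. Genes without such words are missing from them, and the called genes other than TBL38 fell in no family by this rule. A called gene without a symbol may still belong to one of these families. The 25 families with 3 or more named members held 356 members in all. TBL38 was the called member among them, and their medians ran from -0.13 to 0.26. Of the 23 trichome birefringence-like genes TBL38 was lower and the other 22 did not pass. Their differences ran from -0.98 to 0.61 with a median of 0.12, so that TBL38 stood at the low end of its family. The 10 xyloglucan endotransglucosylases, which remodel the primary wall, had a median of 0.26. After XTH16, XTH32 had the smallest p among them, with 9.90, 10.03 and 9.36 in C3H14-OE, against 8.78, 9.19 and 9.10 in C3H15-OE (difference 0.74, SE 0.20, adjusted p = 0.203). The 19 expansins had a median of 0.10. Their expansin-like members EXLA2 (1.27, SE 0.32, adjusted p = 0.175) and EXLA1 (1.09, SE 0.33, adjusted p = 0.272) had groups that did not overlap, with C3H15-OE replicate 3 close beneath C3H14-OE in both. The 9 tubulin and microtubule genes had a median of 0.22, and 8 of the 9 differences were positive. TUB5, a beta-tubulin, had 0.74 (SE 0.26, adjusted p = 0.362) and TUB6 had 0.29 (SE 0.14, adjusted p = 0.534). The 8 named members of the cellulose synthase and cellulose synthase-like family were all cellulose synthase-like, so no cellulose synthase is among them. They had a median of 0.11, with CSLC04, of the family that makes the xyloglucan backbone, at 0.91 (SE 0.30, adjusted p = 0.307).

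Among families outside the wall, the 43 UDP-glycosyltransferases had a median of -0.03, with UGT71B1 at -0.85 (SE 0.18, adjusted p = 0.103). The 12 glutathione S-transferases, which attach glutathione to reactive compounds, had a median of -0.02. GSTU27 (1.07, SE 0.25, adjusted p = 0.131) and GSTU20 (0.65, SE 0.15, adjusted p = 0.121) were the members with the smallest p, and their groups did not overlap. The 20 beta-glucosidases had a median of -0.0094. BGLU31 read 2.17, 2.18 and 2.03 in C3H14-OE, against 4.27, 4.20 and 2.83 in C3H15-OE, a difference of -1.64 that did not pass by a narrow margin (adjusted p = 0.0634, SE 0.29). The C3H15-OE value nearest to C3H14-OE was once more that of replicate 3. The 69 genes of the plastid genome, several of which share transcripts, had a median of -0.07, with 24 differences positive and 45 negative. Their range was -0.83 to 0.35.

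Within both overexpressor groups the third array stood furthest from the other 2, and arrays of the other groups stood apart too. On the array labelled C3H14-OE replicate 3, 362 probe sets lay over 2-fold above both other C3H14-OE arrays and 108 lay over 2-fold below both. For C3H14-OE replicates 1 and 2 these counts were 17 and 8 and 10 and 66. C3H15-OE replicate 3 had 151 above and 104 below, against 52 and 51 for replicate 1 and 20 and 17 for replicate 2. In the double mutant the counts were 42 and 247, 27 and 211, and 2 and 66 for replicates 1 to 3, and in WT they were 0 and 50, 18 and 116, and 14 and 82. Over all probe sets the array labelled C3H14-OE replicate 3 correlated at 0.984 and 0.983 with its own group and at 0.986 with C3H15-OE replicate 3, a description across probe sets that are not independent. The 3′ minus 5′ difference of the actin control, which grows as RNA breaks down, was 1.49, 1.47 and 1.83 in C3H14-OE and 1.68, 1.53 and 1.82 in C3H15-OE, so replicate 3 had the highest value in each. It was higher still in the mutant array numbered 3 (1.97) and in WT replicates 1 and 3 (2.04 and 2.02). The GAPDH control gave -0.20, -0.13 and 0.01 in C3H14-OE and -0.16, -0.15 and 0.16 in C3H15-OE. The ubiquitin control did not set replicate 3 above the others, with 0.47, 0.43 and 0.40 in C3H14-OE and 0.42, 0.50 and 0.45 in C3H15-OE. The part of RNA quality in what follows was not tested.

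Defence genes show what this spread does to single values. PDF1.2, a plant defensin induced by jasmonate and ethylene, read 6.55, 4.59 and 11.51 in C3H14-OE, against 11.13, 6.83 and 3.73 in C3H15-OE. The double mutant read 2.83, 2.61 and 3.17 for it and WT 3.19, 2.60 and 3.11, so that every overexpressor array lay above every mutant and WT array while the overexpressors overlapped across nearly their whole range. Its difference was 0.32 with a 95% interval of -3.52 to 4.16. OSM34, an osmotin-like protein picked out after its values were seen, read 5.76, 5.38 and 9.75 in C3H14-OE, against 8.35, 5.34 and 3.26 in C3H15-OE. The chitinase CHI, picked in the same way, read 7.51, 6.27 and 10.77 in C3H14-OE, against 9.83, 9.80 and 8.08 in C3H15-OE. In all 3 genes replicate 3 was the highest C3H14-OE array and the lowest C3H15-OE array. Their differences without both arrays numbered 3 were -3.41 for PDF1.2, -1.27 for OSM34 and -2.93 for CHI, against 0.32, 1.31 and -1.06 with all arrays.

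The widest gaps of the array labelled C3H14-OE replicate 3 from the other 2 of its group were in AT4G33550, AT2G43590, AT5G52390, SAG29 and AT2G37870 upward. AT4G33550 read 2.99, 2.98 and 9.23 in C3H14-OE, against 3.66, 3.41 and 2.73 in C3H15-OE. AT2G43590 read 5.31, 4.49 and 11.18 in C3H14-OE, against 6.22, 5.51 and 5.06 in C3H15-OE. SAG29, a sugar transporter of the SWEET family linked to senescence, read 4.42, 4.55 and 9.90 in C3H14-OE, against 4.80, 4.67 and 4.71 in C3H15-OE. In these 3 genes 1 array alone set the C3H14-OE mean above that of C3H15-OE. Downward the widest gaps were in AT4G33810, AT1G05310, AT2G44260, AT1G22690 and AT3G49070, by -2.71 to -2.14. AT1G05310 read 6.67, 7.02 and 3.96 in C3H14-OE, against 5.55, 5.21 and 4.17 in C3H15-OE, so that here replicate 3 was lowest in both groups. None of these 10 genes had a called difference, and their adjusted p ran from 0.713 (AT4G33550) upward.

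**Figure D4:**
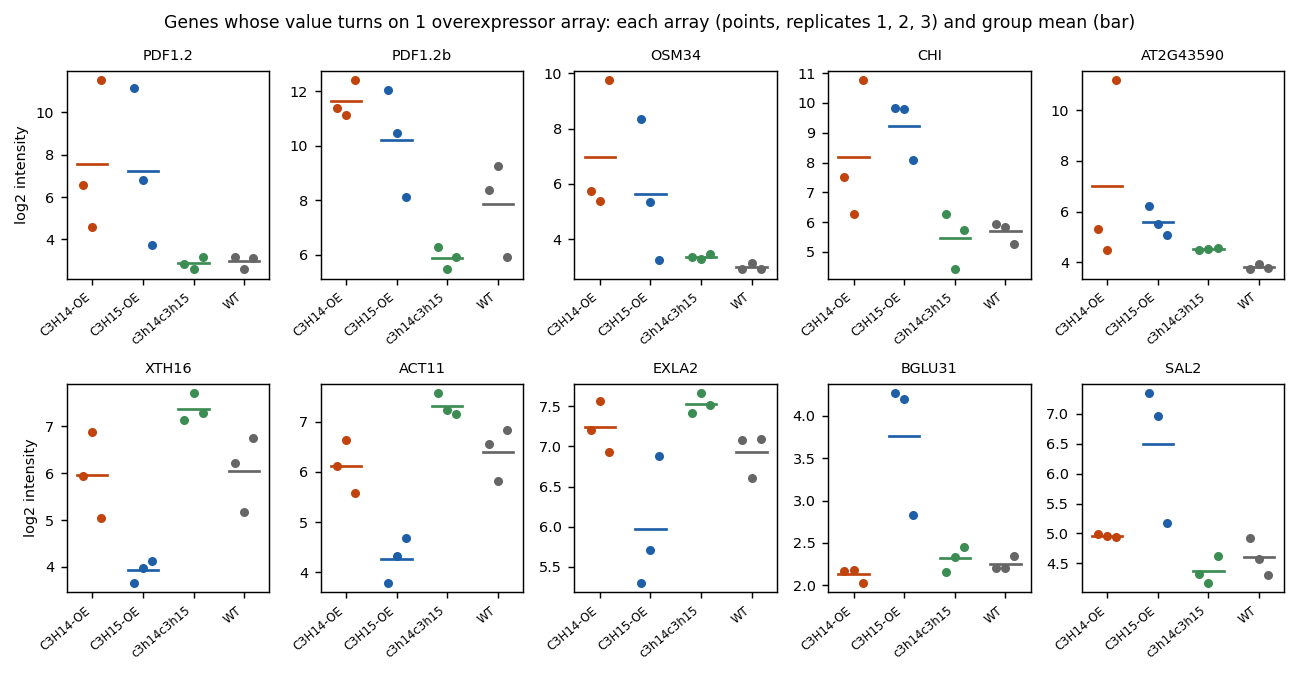
Log2 intensity of 10 genes that show the spread between overexpressor arrays. Each array is a point, replicates 1, 2 and 3 from left to right within a group, with a bar at the group mean. In PDF1.2, OSM34 and CHI replicate 3 is the highest C3H14-OE point and the lowest C3H15-OE point, and in BGLU31 and SAL2 it is the C3H15-OE point nearest to C3H14-OE. The vertical axes differ between panels and do not start at 0.

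Without the array labelled C3H14-OE replicate 3 the counts were 71 higher and 29 lower, and 26 of the 28 probe sets called with all arrays were among them. XTH16 (2.48, adjusted p = 0.0359), ACT11 (2.11, adjusted p = 0.0238) and AT2G05540 (2.22, adjusted p = 0.0105) then passed as higher. ACT11, an actin, read 6.12, 6.64 and 5.58 in C3H14-OE, against 3.79, 4.33 and 4.69 in C3H15-OE, groups that do not overlap on all arrays either. Among the genes that passed as lower were BZIP60, a transcription factor of the unfolded protein response (-0.91, adjusted p = 0.0367), and BGLU40 (-1.10, adjusted p = 0.0431). Without C3H15-OE replicate 3 the counts were 83 higher and 100 lower, with 27 of the 28 among them. EXO, a gene of brassinosteroid-linked growth, then passed as higher (1.87, adjusted p = 0.0102), as did EXLA2 (1.72, adjusted p = 0.0047). BGLU31 (-2.11, adjusted p = 1.5e-05), SAL2 (-2.19, adjusted p = 4.5e-04) and AT3G18250 (-2.42, adjusted p = 1.9e-04) passed as lower. SAL2 read 4.99, 4.97 and 4.94 in C3H14-OE, against 7.34, 6.96 and 5.18 in C3H15-OE, which puts C3H15-OE replicate 3 next to C3H14-OE and far from its own group.

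Leaving out both arrays numbered 3, which was decided once the data had been seen, gave 184 higher and 166 lower, with 27 of the 28 among them. XTH16 (2.59, adjusted p = 0.0218) and ACT11 (2.32, adjusted p = 0.0072) were higher in that fit. The peroxidase Prx37 (-3.13, adjusted p = 0.0114), the chitinase CHI (-2.93, adjusted p = 0.0292) and JRG21 (-3.63, adjusted p = 0.0336) were lower. Leaving out any other overexpressor array took the counts the opposite way. Without C3H14-OE replicate 1 there were 0 higher and 2 lower, without C3H14-OE replicate 2 there were 1 and 1, and without C3H15-OE replicate 1 there were 0 and 3. The arrays of the other groups also mattered, through the shared estimate of spread. Without WT replicates 1, 2 or 3 the counts were 3 and 2, 6 and 6, and 6 and 3, and without mutant arrays 1, 2 or 3 they were 24 and 20, 21 and 16, and 5 and 2. Of the 14 named genes 1 passed without C3H14-OE replicate 1 and 1 without replicate 2, while 13 passed without the array labelled replicate 3. For C3H15-OE the numbers were 2, 0 and 13 without replicates 1, 2 and 3. They were 13, 13 and 3 for the mutant arrays and 2, 6 and 4 for the WT arrays.

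**Figure D5:**
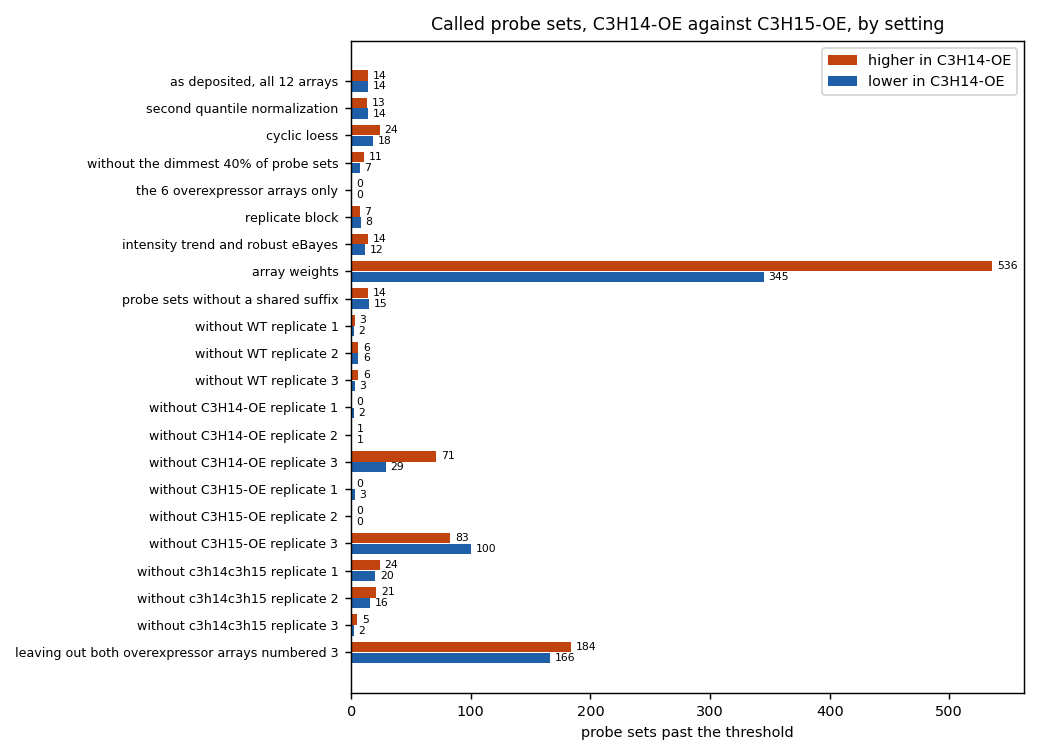
Number of called probe sets, higher (red) and lower (blue) in C3H14-OE than in C3H15-OE, for the main fit of all 12 arrays (14 and 14) and for each alternative. The counts run from 0 in the fit of the 6 overexpressor arrays alone to 536 and 345 with array weights.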

How the data were processed

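The authors made the deposited values with RMA, per the submitters' processing notes, and the table holds normalized intensities on a linear scale for 12 Affymetrix arrays, 3 per group; log2 of each intensity was taken here. The RMA version is not given in the sources used here. The table has 22810 probe sets, of which 64 are controls and were dropped; the other 22746 were all tested, dim ones included. Columns of other samples numbered 0, and no pair of arrays was identical. Genes were named from the platform annotation with symbols from RefSeq TAIR10.1: 13513 probe sets had 1 gene (13436 matched), 503 several and 8730 were unlisted.

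One mean per group was fitted over all 12 arrays with limma 3.58.1 in R 4.3.3 (8 residual and 3.61 prior degrees of freedom). Every p-value comes from this fit, except where arrays are said to be left out or another setting is named. Those p-values come from a separate limma fit of that setting. For arrays, their number limits the precision; the median SE was 0.14. Tested on simulated data for this comparison, with 200 of 22746 probe sets changed, the fit recovered 81% at 2-fold with 9 false calls and 95% at 4-fold with 13. The simulated noise was normal and independent between probe sets, and no simulated array stood apart from its group. Recovery on the real arrays, where some did, is not known from it.

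Named genes were the called 1-gene probe sets with arrays that do not overlap, up to 15 each way, the tandem CCCH zinc finger genes, up to 2 members with the smallest p of each list or family (families with under 3 named members were left out, except 2 chosen after their values were seen), and the 5 widest gaps of C3H14-OE replicate 3 each way. The 5 genes each way with the largest difference that gained a call without an array are given in part, chosen after the data were seen. The comparison, the lists and the families were chosen with earlier results of these data known. A planned comparison of the proteins was not made, since no sequence table was used here.

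As alternatives, the values were normalized again (quantile, or cyclic loess), the dimmest 40% or the probe sets with a shared suffix were dropped, only the 6 overexpressor arrays were fitted, replicate numbers entered as a block, eBayes used a trend and robust estimation, arrays were weighted, and each array was left out. The labels name no pairing by replicate number. Of 18 same-numbered pairs 4 had within-group deviations that correlated over 0.1. Arrays with different numbers were not compared in this way, so whether the numbers pair the arrays was not settled.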

Additional observations from a re-analysis of the deposited data

Results flagged for a closer look

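The direct contrast is the test of whether the departures of the overexpressors from WT differ, and 14 named genes passed it. As C3H14-OE minus C3H15-OE the differences were 1.74 for AT1G50040, 1.30 for AT5G05890, 1.29 for TRM28, 1.08 for AT2G20670, 1.03 for AT1G31040 and 0.83 for AT5G34800. They were -3.47 for QQS, -2.52 for MSRB9, -1.97 for AT4G00700, -1.26 for AT1G53980, -1.12 for AT2G39710, -1.08 for AT5G62350, -0.98 for TBL38 and -0.84 for GLR2.8. Over the alternative settings that held them, the calls were kept most often by MSRB9 (17 of 19), AT1G50040 (15 of 20) and TRM28 (14 of 20). They were kept least often by AT1G31040 (5 of 19), AT2G20670 (9 of 20) and AT4G00700 (9 of 19), and the other 8 genes kept theirs in 10 to 12 settings.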

How the results depend on the processing

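Called counts moved by over 1.5 times under several alternatives. Cyclic loess gave 24 higher (18 lower, 57.1% higher against 50% in the main fit). Leaving out the dimmest 40% gave 7 lower (11 higher, 61.1%), and 13 over 2-fold. The fit of the 6 overexpressor arrays gave 0 in each count, with fewer degrees of freedom, and array weights gave 536 higher (60.8%), 345 lower and 261 over 2-fold. With the replicate number as a block the counts were 7 higher, 8 lower and 12 over 2-fold, and 14 of the 28 calls remained. Whether the numbers pair the arrays was not settled. Without both overexpressor arrays numbered 3 they were 184, 166 and 242. Leaving out single arrays gave 0 to 83 higher, 0 to 100 lower and 0 to 123 over 2-fold, the highest without C3H15-OE replicate 3 and 71, 29 and 78 without C3H14-OE replicate 3; the cause was not tested.

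C3H14 passed under cyclic loess (2.68), array weights (3.18) and without both arrays numbered 3 (3.48), and ran from 2.23 to 3.24 with single arrays left out. Some differences that were not called turned round. With array weights these were PDF1.2 (-1.53), FMA (0.0069), GI (-0.0050) and AT2G37870 (-0.73), and with a second quantile normalization BAN (0.0038). Without both arrays numbered 3 they were PDF1.2 (-3.41), A9 (0.094), OSM34 (-1.27), GI (-0.11), BAN (0.082), AT4G33550 (-0.56), AT2G43590 (-0.96), SAG29 (-0.25) and AT2G37870 (-1.41). With single arrays left out the ranges were -1.66 to 2.27 for PDF1.2, -0.17 to 0.033 for A9, -0.029 to 0.42 for SBPASE, -0.079 to 2.66 for OSM34, -0.31 to 0.18 for FMA, -0.51 to 0.0085 for THI2.1, -0.080 to 0.15 for GI, -0.15 to 0.088 for BAN and -2.46 to 0.41 for AT5G52390. They were -0.29 to 2.84 for AT4G33550, -0.69 to 2.65 for AT2G43590, -0.24 to 2.50 for SAG29, -1.48 to 1.503 for AT2G37870, -0.11 to 1.41 for AT2G44260 and -0.33 to 1.02 for AT3G49070. The cause was not tested. Of the 14 named genes 13 or 14 passed under the other alternatives that kept all 12 arrays, 7 of 8 held after the dim filter, 7 with the block and 0 with the 6 arrays alone, and 0 to 13 with single arrays left out. The dim filter left out MSRB9, AT4G00700, AT1G53980, AT1G31040, AT5G34800 and GLR2.8. How far a dim probe set lies above background is not known from these values.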
